A study of Arabidopsis thaliana with 18 samples.

Results

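The comparison described here is that of plants harvested 1 h after a water spray with plants sprayed with water and harvested at once, with no hormone in either spray. Its members are the 4 water arrays whose titles begin with DV001, 1 of Col-0 and 1 of etr1-1 at each time, out of 18 arrays in the series. The arrays at 0 h and 1 h were paired by genotype, and the difference within a pair, 1 h minus 0 h on the log2 scale, is called the step. Because the plants at 0 h had been sprayed too, the step covers the hour after spraying, and spraying, handling and the passing of that hour cannot be told apart.

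The series measured RNA from whole Arabidopsis thaliana plants aged 14 days on Affymetrix ATH1 arrays, in 10 groups made from both genotypes, a spray of water or of the gibberellin GA4, and harvest times from 0 h to 3 h. Col-0 is the common wild type and etr1-1 a line with a dominant allele of the ethylene receptor ETR1 that makes plants insensitive to ethylene. Both were grown on medium with sucrose under a daily light and dark cycle. Water at 1 h was also measured on 2 further arrays per genotype, replicates 1 and 2, whose titles begin with DV002, and these served as a check of the level at 1 h. No DV002 array was made at 0 h, so steps were taken within DV001 only. The labels do not say what the prefixes stand for, nor whether the arrays of a group hold different plants. The p-values therefore rest on a spread that may be technical. Some titles among the DV001 arrays also carry the word repeat, whose meaning is not given. In whole plants, fewer cells of a type and less RNA per cell cannot be told apart.

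Touch, spraying and other mechanical disturbance are known to change the transcripts of many plant genes within minutes to hours, among them genes for calmodulin-like calcium sensors, zinc finger and WRKY transcription factors and enzymes that remodel the cell wall. The growing plant wall is a network of cellulose, xyloglucan and pectin. Expansins loosen it, xyloglucan endotransglucosylases (XTH) cut and rejoin xyloglucan chains, and pectin methylesterases remove methyl groups from pectin. These statements are background and not results of the arrays.

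Few transcripts had large steps, and most of those were higher at 1 h. Of 15922 probe sets tested, 29 (0.182%) were at least 2-fold higher at 1 h in both genotypes and 3 (0.0188%) at least 2-fold lower. This count rests on single arrays and has no test. A limma fit over the 8 water arrays, with terms for genotype, prefix and time, gives the mean of both steps. Its error comes from the spread between replicates 1 and 2 and from the disagreement between the genotypes. In that fit 30 probe sets (0.188%) rose and 1 (0.00628%) fell at a Benjamini-Hochberg adjusted p under 0.05. The fit had 4 residual degrees of freedom and assumes that the arrays at 0 h vary as those at 1 h do. Of the 29 probe sets higher by 2-fold, 20 also passed the limma test and 9 did not. None of the 3 lower by 2-fold passed it.

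The 30 probe sets that rose had mean steps from 0.88 to 2.17. Named genes account for 15 of them, and 10 of the 30 were not at least 2-fold in both genotypes. Before adjustment, 815 probe sets were higher and 527 lower at p under 0.05, where 796.1 in all would be below that value with no differences. When probe sets of low level were not removed before the test, 4 of the 31 calls remained, AT1G19380 and AT1G69840 among the named ones. When the term for the prefix was dropped, all 31 remained and the fit called 136 probe sets higher and 21 lower.

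**Figure D1:**
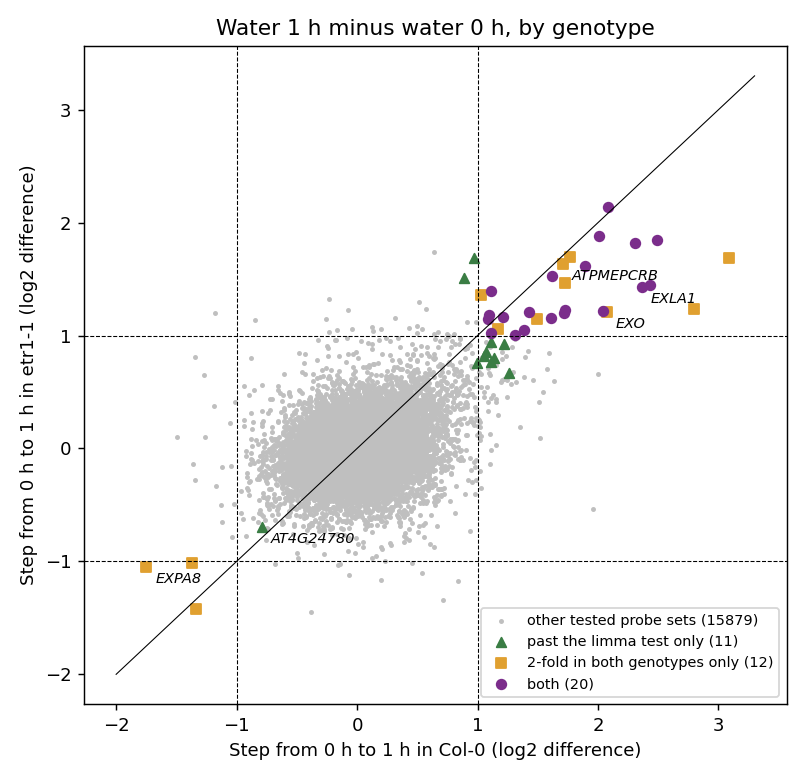
Step from 0 h to 1 h in Col-0 (x axis) against the step in etr1-1 (y axis), both as log2 differences, for the 15922 tested probe sets. Each point is 1 probe set, and the shapes mark those at least 2-fold the same way in both genotypes, those past the limma test, and those that met both. The 20 that met both all lie in the upper right, and EXPA8 lies in the lower left.

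The known wall gene that rose was EXLA1, which encodes an expansin-like protein. Its intensity in Col-0 was 121 at 0 h and 692 on the paired array at 1 h, with 1085 and 1306 on replicates 1 and 2. In etr1-1 it was 222 at 0 h and 628 on the paired array, with 869 and 1367 on the others. The 6 arrays at 1 h were all above both arrays at 0 h, and the DV002 arrays were above the DV001 arrays. The steps were 2.37 in Col-0 and 1.43 in etr1-1, and EXLA1 rose by 1.90 ± 0.25 on the log2 scale (SE, 8 arrays), or 3.73-fold, with an adjusted p of 0.0143 in limma. The value at 0 h was lower in Col-0 than in etr1-1, and the values of the genotypes at 1 h lay close together.

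EXO, or EXORDIUM, encodes a protein of the cell exterior that promotes cell expansion and responds to brassinosteroids. Its intensity was 130 in Col-0 and 125 in etr1-1 at 0 h. At 1 h it was 598 on the paired array of Col-0, with 576 and 1167 on replicates 1 and 2, and 310 on that of etr1-1, with 590 and 1125. No array at 1 h reached down to the level at 0 h, but the arrays at 1 h ranged widely among themselves. The steps were 2.07 and 1.21. The mean step of 1.64 ± 0.35 did not pass the limma test, with an adjusted p of 0.116, and with no term for the prefix the adjusted p was 0.0301.

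ATPMEPCRB, a pectin methylesterase gene, had nearly equal steps in both genotypes, 1.71 in Col-0 and 1.64 in etr1-1. Its intensity at 0 h was 44.2 in Col-0 and 61.0 in etr1-1. The paired arrays at 1 h gave 181 and 224. Replicates 1 and 2 gave 197 and 398 in Col-0 and 260 and 544 in etr1-1, and replicate 2 was the highest in each genotype. The 0 h arrays were below all arrays at 1 h in both genotypes, as were those of 13.8% of all probe sets. The mean step was 1.67 ± 0.32 with an adjusted p of 0.0872 in limma, and 0.0196 with no term for the prefix.

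EXPA8, an alpha-expansin gene, was at least 2-fold lower at 1 h in both genotypes. Its intensity in Col-0 was 489 at 0 h and 134 on the paired array at 1 h, with 108 and 58.8 on replicates 1 and 2. In etr1-1 it was 223 at 0 h and 99.7 on the paired array, with 63.8 and 33.0 on the others. The arrays at 0 h were above all arrays at 1 h in both genotypes, and the Col-0 array at 0 h was the highest. The steps were -1.75 and -1.05, and the mean of -1.40 ± 0.27 had an adjusted p of 0.0872 in limma. With no term for the prefix the adjusted p was 0.0266.

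**Figure D2:**
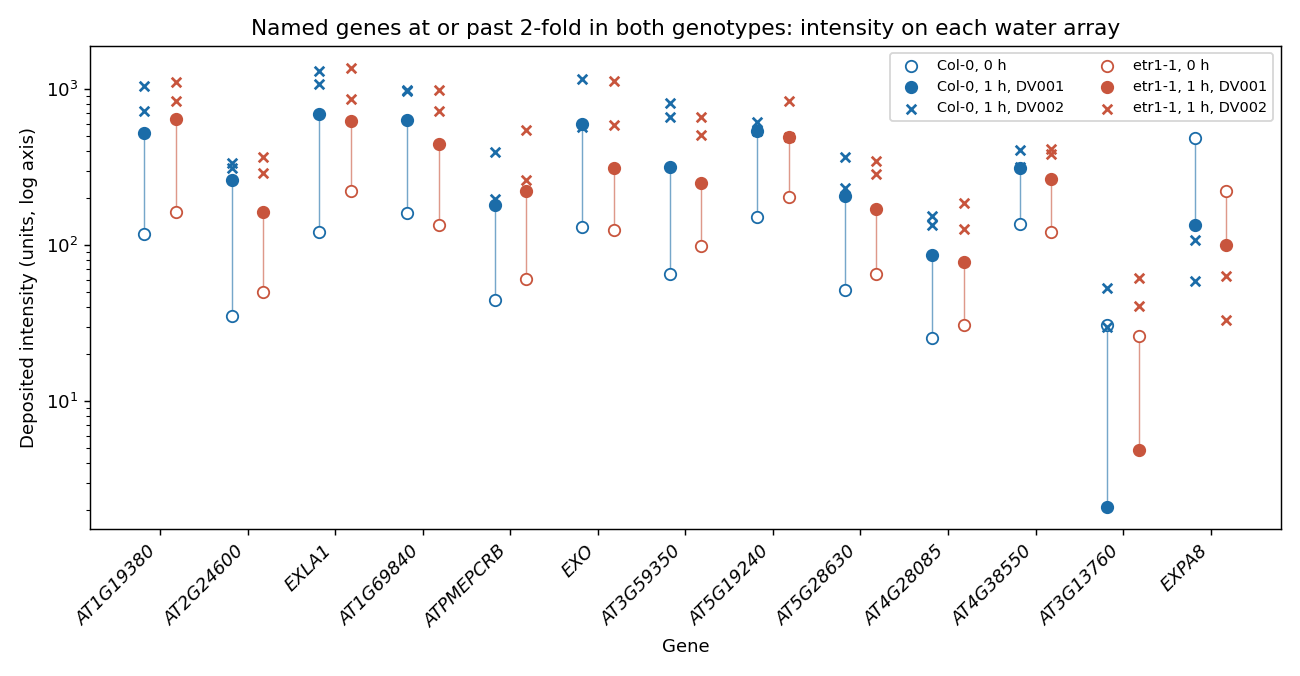
Deposited intensity (y axis, log scale) of the 13 named genes at or past 2-fold the same way in both genotypes, on each of the 8 water arrays. Open circles are the arrays at 0 h, filled circles the paired DV001 arrays at 1 h and crosses the DV002 arrays at 1 h. The open circle lies below the other points for EXLA1, EXO and ATPMEPCRB and above them for EXPA8.

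Apart from SGT1A, described below, the other named genes that rose are known here by locus identifiers only, and no role is given for them. AT1G19380 had intensities of 117 in Col-0 and 163 in etr1-1 at 0 h. On the paired arrays at 1 h it had 521 and 644, with 727 and 1040 on replicates 1 and 2 of Col-0 and 841 and 1105 on those of etr1-1. Its steps of 2.01 and 1.88 were close to each other, and it rose by 1.95 ± 0.18 with an adjusted p of 0.0015 in limma. AT1G69840 went from 160 to 638 in Col-0, with 979 and 993 on the DV002 arrays. In etr1-1 it went from 135 to 447, with 728 and 988 on those arrays. It rose by 1.75 ± 0.15 with an adjusted p of 9.97e-04, and its intensities at 0 h were below all those at 1 h.

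AT2G24600 had the largest step in Col-0 among the named genes, 2.43, and a step of 1.45 in etr1-1. It had 35.4 at 0 h and 261 on the paired array in Col-0, with 314 and 335 on replicates 1 and 2. In etr1-1 it had 49.9 and 164, with 289 and 369 on the others. AT2G24600 rose by 1.94 ± 0.21 with an adjusted p of 0.00407 in limma. The difference between its steps, -0.98 ± 0.38 (etr1-1 minus Col-0), was not past the test of that difference. AT3G59350 had 65.5 and 319 in Col-0 and 99.0 and 251 in etr1-1 on the paired arrays, and its DV002 arrays lay between 505 and 817. It rose by 1.63 ± 0.22 with an adjusted p of 0.0147.

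AT5G19240 and AT5G28630 rose by 1.48 ± 0.21 and 1.46 ± 0.20. In AT5G19240 the paired arrays at 1 h, with 541 in Col-0 and 495 in etr1-1, lay within the range of the DV002 arrays, 491 to 840. Its arrays at 0 h had 152 and 203. AT4G28085 and AT4G38550 rose by 1.16 ± 0.17 and 1.07 ± 0.16, and were the named genes nearest to the 2-fold limit, with steps in etr1-1 of 1.00 and 1.03. Just outside that limit lay AT1G33600, with steps of 0.99 in Col-0 and 1.12 in etr1-1, and AT5G01740, with 1.11 and 0.98. Neither of these passed the limma test.

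The largest rise past the test belonged to an unnamed probe set, 267083_at, which had 326 in Col-0 and 392 in etr1-1 at 0 h. At 1 h it had 1902 and 1450 on the paired arrays and between 2084 and 2341 on the DV002 arrays. It rose by 2.17 ± 0.15, or 4.49-fold, with an adjusted p of 2.15e-04 in limma. Another unnamed probe set, 245757_at, had the largest mean step of all, 2.39 ± 0.46, from 15.0 to 247 in Col-0 and from 32.5 to 141 in etr1-1. Its 1 h arrays of DV002 ran from 333 to 904, a wide range, and its adjusted p was 0.0872. Of the 29 probe sets, 18 are unnamed in the annotation used here, and 11 are named.

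Among the genes that passed the limma test without being 2-fold in both genotypes, SGT1A encodes a co-chaperone that works with disease resistance proteins. It had 79.2 in Col-0 and 81.3 in etr1-1 at 0 h. At 1 h the arrays of Col-0 had 184, 215 and 217, and those of etr1-1 had 160, 226 and 259. SGT1A rose by 0.96 ± 0.14 with an adjusted p of 0.0194. Its 0 h arrays were below all arrays at 1 h in both genotypes, as were those of 13.8% of all probe sets. The genotypes had nearly the same level at 0 h.

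AT4G21870 was the named gene with the larger step in etr1-1, 1.69 against 0.97 in Col-0. It had 437 at 0 h and 874 on the paired array in Col-0, and 153 and 528 in etr1-1. It rose by 1.33 ± 0.17 with an adjusted p of 0.0119, and its level was lower in etr1-1 than in Col-0 on each pair of arrays with the same time and replicate number. AT1G15640 rose by 1.03 ± 0.15, AT4G08850 by 0.97 ± 0.15, AT4G34950 by 0.97 ± 0.15 and AT3G06070 by 0.88 ± 0.14. In the fit over all 18 arrays AT1G15640, AT3G06070, AT4G28085, AT4G38550 and AT5G19240 did not pass. With an offset of 64 AT3G06070, AT4G08850, AT4G28085 and AT5G28630 did not, and with no intensity trend AT3G06070 and AT4G34950 did not. All 15 named genes that rose had 0 h arrays below all 3 arrays at 1 h in both genotypes, against 13.8% of all probe sets. The fit that chose the 15 used these same arrays, so nothing is read from that count.

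A single probe set fell past the limma test, that of AT4G24780. It had 838 in Col-0 and 728 in etr1-1 at 0 h. At 1 h the paired arrays had 477 and 444, and the DV002 arrays between 369 and 422. AT4G24780 fell by 0.74 ± 0.11 on the log2 scale, or 1.67-fold, with an adjusted p of 0.0268, and its steps were -0.79 and -0.69. The arrays at 0 h stood well above the 6 arrays at 1 h, which lay close together. It did not pass with no intensity trend, with no filter on low levels or in the fit over all 18 arrays.

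The next named probe sets by unadjusted p did not pass. AT1G49470 had 189 in Col-0 and 138 in etr1-1 at 0 h and 100.1 and 87.4 on the paired arrays, with a mean step of -0.70 ± 0.13 and an adjusted p of 0.0872. AT2G42690 and AT1G32580 had mean steps of -0.69 and -0.66, with adjusted p-values of 0.114 and 0.136 in limma. AT3G13760 was lower by at least 2-fold on the paired arrays, but at a very low level. It had 30.9 and 26.3 at 0 h and 2.1 and 4.9 at 1 h, whereas replicates 1 and 2 had 53.3 and 30.1 in Col-0 and 61.7 and 40.5 in etr1-1. The arrays at 1 h thus lay on both sides of those at 0 h, and the lower value held on the DV001 arrays only. The third probe set lower by 2-fold was the unnamed 245428_at, with 46.8 and 54.5 at 0 h and 8.8 and 10.3 at 1 h.

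The level check compared each 0 h array with all 3 water arrays at 1 h of its genotype. Of all tested probe sets, 13.8% had a 0 h value below all 3 in both genotypes and 16.2% a value above all 3. Those shares include any difference between the prefixes, since 2 of the 3 arrays at 1 h are from DV002. All 29 probe sets higher by 2-fold were below all 3, as were the 30 that rose in limma, and 2 of the 3 lower by 2-fold were above all 3, AT3G13760 being the exception. These counts reuse the arrays that chose the probe sets, and only the DV002 arrays at 1 h are new to the 2-fold rule, so nothing is read from them.

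The level at 1 h was higher on DV002 than on DV001 for most of the 29. In 26 of them replicates 1 and 2 were both above replicate 3 in both genotypes, against 18.2% of all probe sets. Taken from the DV002 arrays, the median difference to 0 h was 2.51 in Col-0 and 2.22 in etr1-1, where the paired DV001 arrays gave 1.72 and 1.24. The medians over all probe sets were -0.03 in each genotype on DV002 and 0.00 and -0.02 on DV001. With the DV002 arrays as the level at 1 h, all 29 were at least 2-fold higher in both genotypes, and 220 probe sets in all were higher and 34 lower. Those differences use the same 0 h arrays that chose the 29, so the count is a description and no independent check. EXO and EXLA1 each ranged by more than 2-fold among the arrays of etr1-1 at 1 h. What the prefixes differ in was not tested.

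**Figure D3:**
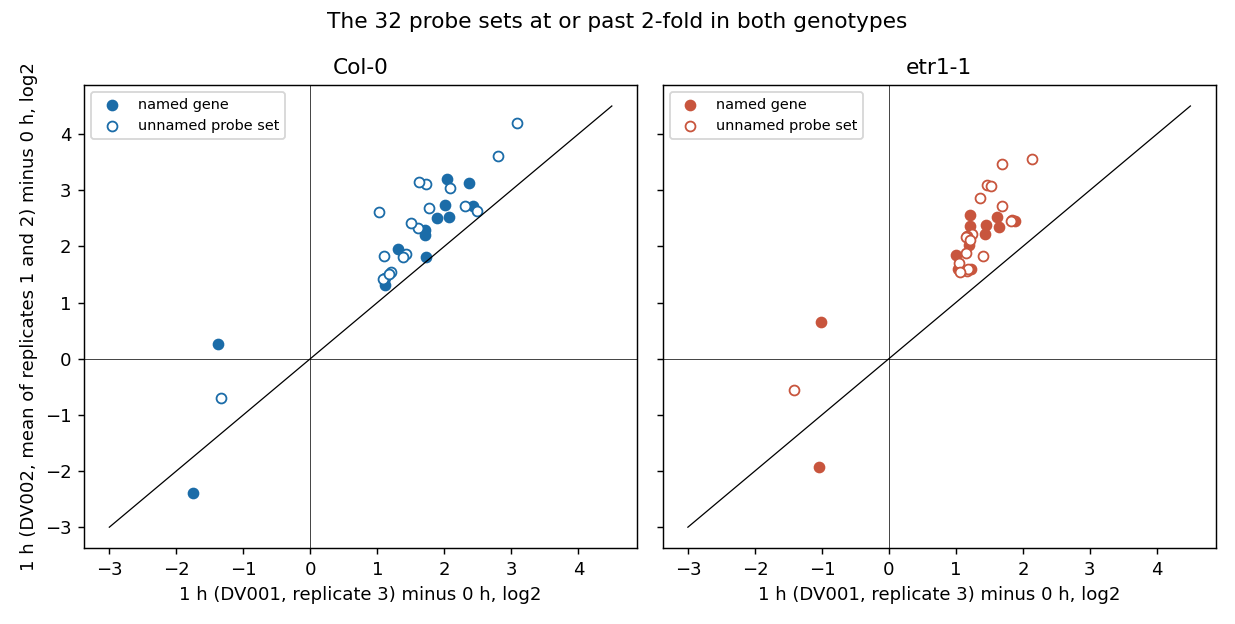
Difference from 0 h of the DV001 array at 1 h (x axis, log2) and of the mean of the DV002 arrays at 1 h (y axis, log2) for the 32 probe sets at least 2-fold the same way in both genotypes, with Col-0 on the left and etr1-1 on the right. Points above the diagonal in the upper right had a larger difference on DV002, and the named gene that is lower on the x axis and above 0 on the y axis is AT3G13760.

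The genotypes shared the direction of the 29 by the way these were chosen, and the sizes differed. The step was larger in Col-0 in 24 of the 29 and in 24 of the 30 that rose in limma, against 51.6% of all probe sets. These same steps chose the 29 and the 30, and the 51.6% takes in rises and falls alike. Nothing about the genotypes is read from these counts. On its own, Col-0 had 101 probe sets (0.634%) at least 2-fold higher and 20 (0.126%) lower. In etr1-1 there were 56 (0.352%) and 14 (0.0879%). The 29 shared probe sets are 28.7% of the 101 and 51.8% of the 56. Over all tested probe sets the steps had a standard deviation of 0.31 in Col-0 and 0.25 in etr1-1, and the steps of the genotypes correlated at 0.31 (Pearson) and 0.21 (Spearman). The points of that correlation are probe sets on the same 4 arrays, which are no independent replicates.

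The test of the difference between the steps, a limma fit over all 18 arrays, called 0 probe sets (0%). At an unadjusted p under 0.05 there were 421, and the smallest adjusted p was 0.144. That value belonged to AT1G16690, with steps of -1.18 in Col-0 and 1.20 in etr1-1 and a difference of 2.38 ± 0.30. Its intensities lay between 8.1 and 46.4 on the water arrays, near the bottom of the scale. For EXLA1 the difference was -0.93 ± 0.50 and for EXO -0.86 ± 0.82, so neither was large against its error. The fit takes its error from the DV002 pairs, since each DV001 group holds 1 array.

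The GA4 arrays show how the same genes stood at other times. They are single DV001 arrays at 30 min and 3 h after a GA4 spray, and water was not measured at those times. At 30 min all 29 probe sets were above 0 h in both genotypes, against 23.4% of all probe sets. The 0 h arrays are those that chose the 29, so nothing is read from this count. They were above the water array at 1 h in both genotypes in 14, below it in 4 and mixed in 11. At 3 h after GA4 all 29 were below the DV001 array at 1 h after GA4 in both genotypes, against 29.9% of all probe sets. Of these, 19 were at least 2-fold lower, of 36 among all probe sets (0.226%). Their median difference between 3 h and 1 h was -1.25 in Col-0 and -1.31 in etr1-1, and that of all probe sets was -0.01 and 0.02.

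Among the DV001 arrays of each genotype EXO was highest at 30 min, with 1434 in Col-0 and 907 in etr1-1, and it had 250.2 and 137 at 3 h. On DV002 the replicate 2 arrays of etr1-1 at 1 h were higher than that, with 1125 after water and 1227 after GA4. The array of etr1-1 at 3 h was thus close to its 0 h value of 125. EXLA1 had 817 and 823 at 30 min and 194 and 192 at 3 h, and ATPMEPCRB had 182 and 246 at 30 min and 65.6 and 43.8 at 3 h. All of these had come down by 3 h to within 2-fold of the 0 h arrays. EXPA8 had 221 and 130.0 at 30 min and 174 and 150 at 3 h, so in Col-0 it was still below its 0 h value of 489.

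Other genes that were higher at 1 h after water had another order of times. AT4G34950 had 292 in Col-0 and 368 in etr1-1 at 30 min, against 623 and 451 at 1 h after water, and 672 and 528 at 3 h. COR27, a cold-regulated gene that also takes part in the circadian clock, had 8.0 and 15.9 at 0 h and 10.8 and 15.8 at 30 min. At 1 h after water it had 43.6 and 46.5 on the paired arrays and between 92.2 and 166 on the DV002 arrays, and at 3 h after GA4 it had 128 and 193. Its mean step of 1.14 ± 0.23 had an adjusted p of 0.0902 and so did not pass the limma test. COR27 and AT4G34950 were thus low at 30 min and high at 3 h, where EXLA1 and EXO were high at 30 min and low at 3 h. The time of day of the harvests is not given in the labels.

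**Figure D4:**
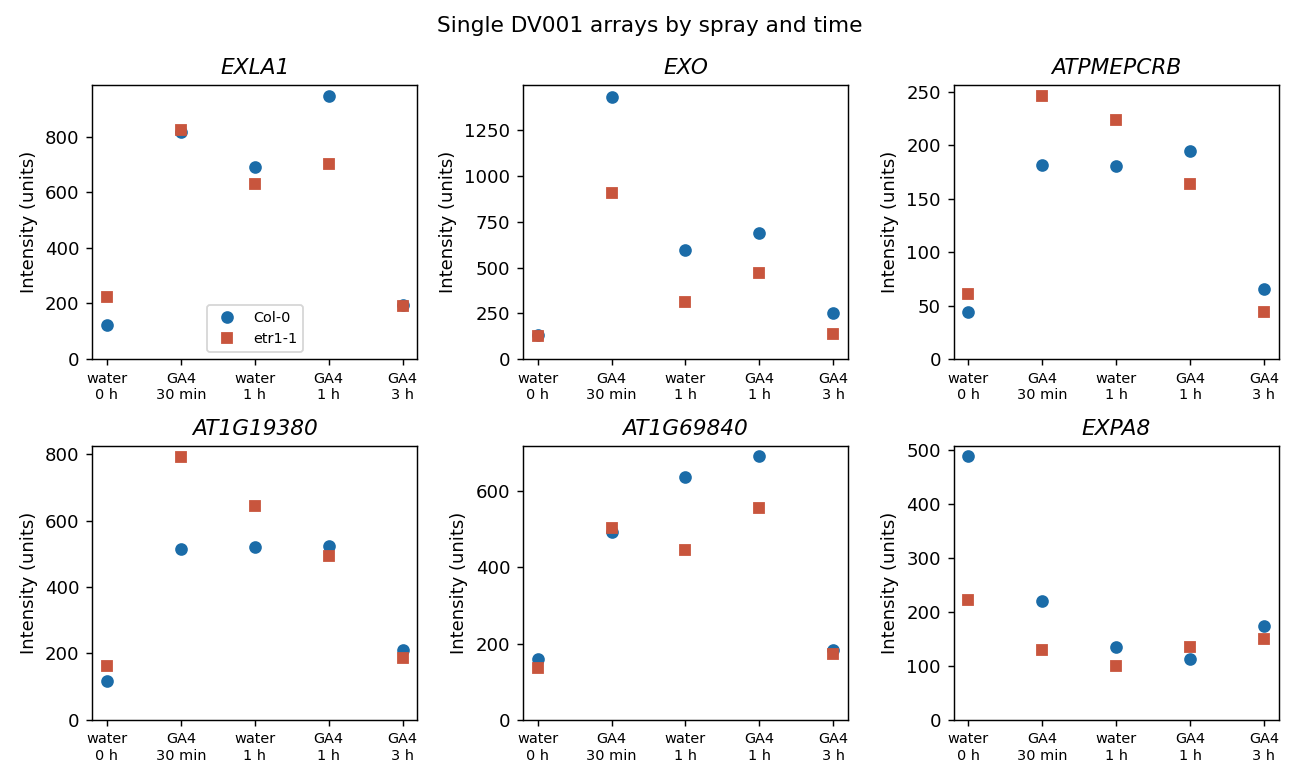
Deposited intensity (y axis, from 0) of EXLA1, EXO, ATPMEPCRB, AT1G19380, AT1G69840 and EXPA8 on single DV001 arrays of Col-0 (circles) and etr1-1 (squares), by spray and time. The 5 genes other than EXPA8 were high at 30 min after GA4 and at 1 h after either spray. They were low at 0 h after water and at 3 h after GA4, and EXPA8 was highest at 0 h.

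Lists of genes for wall remodelling, touch, hormones, photosynthesis and other processes held 162 tested genes in 29 lists, and 1 of those genes, EXLA1, passed the limma test. The lists are therefore described by their values, beside a median mean step of -0.01 over all probe sets. Of 16 expansin genes, EXLA1 rose and the other 15 did not pass, with a median mean step of -0.16 over the list. Among 8 alpha-expansin genes, which loosen growing walls, 6 had steps below 0 in both genotypes, against 30.3% of all probe sets. The expansin list was chosen with earlier results of these data known and its genes share the same arrays, so nothing is read from that count. EXPA4 had 335 and 245 at 0 h and 225 and 199 on the paired arrays at 1 h, with a mean step of -0.41 ± 0.13. EXPB3, a beta-expansin gene, had a mean step of -0.45 ± 0.14. Like EXPA8, both had 0 h arrays above all arrays at 1 h, as did 16.2% of all probe sets. The other expansin-like genes had mean steps of 0.14 ± 0.52 (EXLA2) and 0.51 ± 0.24 (EXLA3) and did not pass. Taken from the DV002 arrays, their differences to 0 h were larger, 1.72 in Col-0 and 1.76 in etr1-1 for EXLA2 and 1.07 and 1.33 for EXLA3. EXLA3 had 0 h arrays below all arrays at 1 h in both genotypes. Whether their steps differ from that of EXLA1 was not tested. EXLA2 ran from 20.3 to 262 over the 6 water arrays at 1 h.

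No XTH gene passed the test. The 7 measured members had a median mean step of 0.48, and 3 had 0 h arrays below all arrays at 1 h in both genotypes, against 13.8% of all probe sets. Earlier results of these data were known when the XTH list was chosen, so nothing is read from that count. XTH18 had 112 at 0 h and 198 on the paired array in Col-0, and 92.2 and 202 in etr1-1, with a mean step of 0.88 ± 0.31. Its DV002 arrays ran from 326 to 728, which is above both pairs. XTH16 had 0.67 ± 0.18. XTH33 differed in sign between the genotypes, with steps of 1.10 in Col-0 and -0.14 in etr1-1.

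The 15 genes for cellulose and glucan synthesis or trimming had a median mean step of -0.03, and none passed. CSLC04, a glucan synthase for the xyloglucan backbone, had 277 and 274 at 0 h and 427 and 405 on the paired arrays, with a mean step of 0.57 ± 0.16. CSLD2, a cellulose synthase-like gene, had 0.49 ± 0.13. GH9B13, of the glycosyl hydrolase family that includes endoglucanases, had -0.54 ± 0.15. These 3 had 0 h arrays outside the range of all arrays at 1 h in both genotypes. Of the 15 genes, 5 had 0 h arrays below all arrays at 1 h and 4 above all. Among all probe sets these shares were 13.8% and 16.2%. As with the XTH list, nothing is read from these counts.

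Of the receptor kinases that sense the state of the wall, THE1 had 97.5 and 121 at 0 h and 198 on each paired array, with 241 to 289 on the DV002 arrays. Its mean step of 0.78 ± 0.14 had an adjusted p of 0.0642 in limma. FER, the receptor of RALF peptides, had 446 and 483 at 0 h and 690.4 and 607 on the paired arrays, and its mean step of 0.47 ± 0.13 did not pass. Both genes had 0 h arrays below all arrays at 1 h in both genotypes, as did 13.8% of all probe sets. Among 11 genes for signalling peptides, whose median mean step was -0.06, RALFL33 had the highest with 0.66 ± 0.18.

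The 3 genes of the list for touch and wounding had steps above 0 in both genotypes but did not pass. STZ, a zinc finger repressor gene, had 48.7 and 57.5 at 0 h and 103 and 92.2 on the paired arrays, with a mean step of 0.72 ± 0.20 and an adjusted p of 0.274. Its values at 30 min after GA4 were far higher, 440.1 and 448. CML38, a calmodulin-like gene, had 0.90 ± 0.36, and its arrays at 1 h ran from 20.5 to 163. The 6 calmodulin-like genes had a median mean step of 0.16, with 3 above 0 in both genotypes, 1 below 0 in both and 2 mixed. The touch list of 3 genes had a median mean step of 0.72, and all 3 had 0 h arrays below those at 1 h in both genotypes, against 13.8% of all probe sets. This list was chosen with earlier results of these data known, so nothing is read from that count. WRKY53, a transcription factor gene of senescence and defence, had 0.32 ± 0.16, and the 6 WRKY genes had a median of 0.25.

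**Figure D5:**
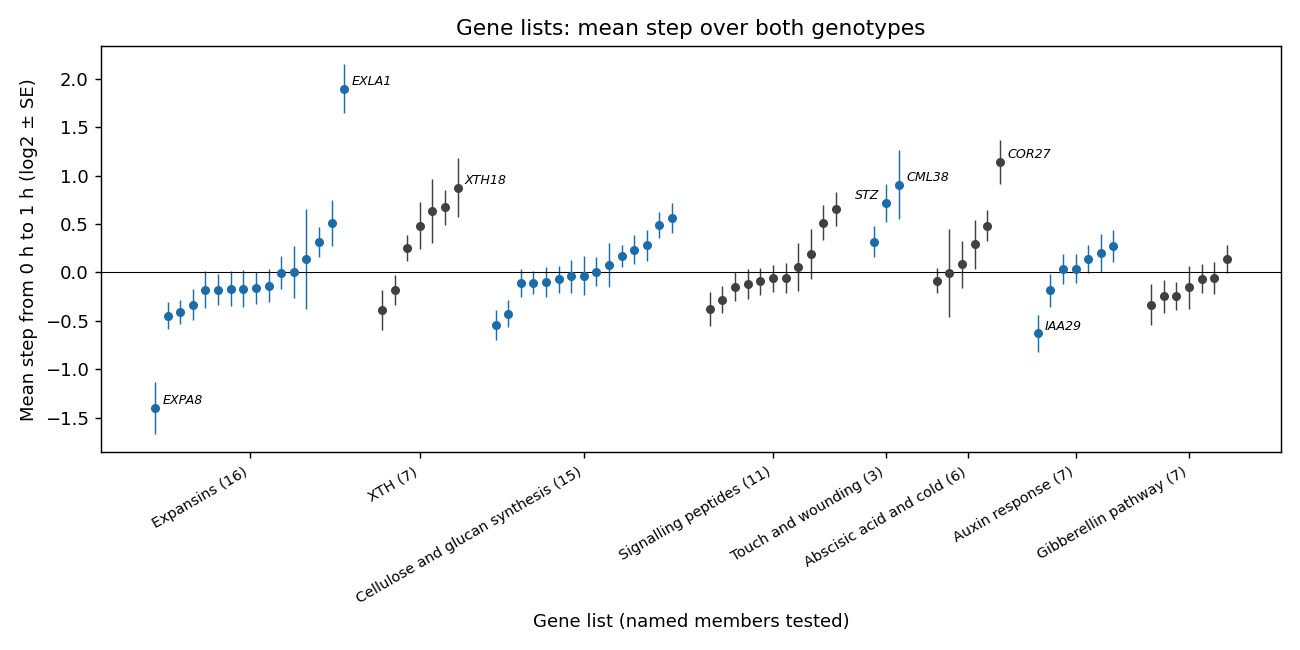
Mean step from 0 h to 1 h over both genotypes (y axis, log2, with SE from the limma fit over 8 water arrays) for the named members of 8 gene lists (x axis). Each point is 1 gene, and EXLA1 is the single point that passed the test.

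None of the genes on the hormone lists passed the test. The brassinosteroid list held 1 tested gene, EXO, whose values are given above. The 7 gibberellin genes had a median mean step of -0.16. The receptor genes GID1A and GID1B had -0.16 ± 0.22 and -0.25 ± 0.17, and the step of GID1B was 0.05 with no term for the prefix. XERICO, a RING finger gene tied to gibberellin and abscisic acid, had 147 and 169 at 0 h and 107 and 138 on the paired arrays, within reach of the 102 to 165 on the DV002 arrays. The 3 ethylene signalling genes had a median of -0.16 and the 7 auxin response genes 0.04. IAA29, an auxin response repressor gene, had -0.63 ± 0.19 and was low throughout, with 63.6 as its highest value on the water arrays. The 6 genes of abscisic acid and cold had a median of 0.19, with COR27 as the highest. Taken from the DV002 arrays, the differences to 0 h were larger for most of them. They were 2.60 in Col-0 and 1.55 in etr1-1 for COR15A, 2.04 and 1.36 for COR15B and 1.14 and 1.36 for COR47. LTI30 had 0.86 and 1.33, and HVA22C was below 0 with -0.40 and -0.36.

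The defence and flavonoid lists also gave no call. The 8 genes of the defence list, most of them plant defensin (PDF) and LCR genes, had a median mean step of 0.26. The 12 glutathione transferase genes had a median of -0.08. For the 5 genes matched by symbol to the flavonoid list it was -0.21, which is the value of CHI. Whether that probe set is of the flavonoid enzyme was not checked. DFR, an enzyme gene of anthocyanin synthesis, had 41.6 and 66.7 at 0 h and 23.4 and 41.8 on the paired arrays, with a mean step of -0.53 ± 0.18. The 9 nuclear genes for photosynthesis, which mark green tissue, had a median of 0.12. Among them RCA (Rubisco activase) had between 2464 and 3331 over the 8 water arrays and LHCB4.1 (a light-harvesting protein) between 2925 and 3671. No gene of the root marker list was among the tested named genes.

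Measures of array quality, taken from the labels and from control probe sets, moved with time in part. The average background of the scans was 101.23 in Col-0 and 118.23 in etr1-1 at 0 h, and 88.66 and 84.70 on the paired arrays at 1 h. It was thus higher at 0 h in both genotypes. The 3' to 5' ratio of the actin controls went from 2.70 to 1.99 on the log2 scale in Col-0 and from 1.82 to 2.64 in etr1-1, in opposite directions. That of the ubiquitin controls went the other way in each genotype, from 1.25 to 1.75 in Col-0 and from 1.51 to 1.37 in etr1-1. For the GAPDH controls it went from 0.19 to 0.24 and from 0.35 to 0.52. The part of background and RNA quality in the steps was not tested. Correlations between the water arrays over all tested probe sets ran from 0.927 to 0.981.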

How the data were processed

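The authors deposited linear intensities, with 1 value per probe set on each array. Which software produced these is not given in the sources. After removal of the highest and lowest 2% of values, array means ran from 100.007 to 100.008, which shows a common scaling before deposit. They were used as log2(value + 16) with no further scaling, so folds understate changes of dim probe sets. Of 22810 probe sets, 64 controls were left out, and a filter at the 30th percentile of mean log2 level kept 15922, of which 8767 are named. The platform table names 1 gene for 13513 probe sets, several for 503 and none for 8730. Of the 13513, 13436 matched the RefSeq table of TAIR10.1 by Entrez identifier, and names were updated from it.

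Steps were tested in limma 3.58.1 (R 4.3.3; lmFit, then eBayes with trend), with Benjamini-Hochberg adjustment over all tested probe sets. The fit was tested on simulated data. The difference between the genotypes was fitted with 1 term per group and prefix. A 2-fold call needs a log2 step of 1 or more on single arrays. Precision is limited by the number of arrays.

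The comparison, the gene lists and the rule for named genes were chosen with earlier results of these data known. That rule takes all named genes at 2-fold in both genotypes, the largest changes past the limma test outside the range of the arrays at 1 h (or the 5 smallest p-values where fewer pass), called list members, the smallest p-values for the genotype difference and fixed genes. GASA9, 1 of the fixed genes, is not named in the tables and is not analysed here. Other genes given as examples from the lists were picked after their values were seen. Alternatives were other offsets, filters, normalizations, fold limits and sets of arrays. Promoter motifs were not analysed here.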

Additional observations from a re-analysis of the deposited data

How the results depend on the processing

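With 1 array per genotype and time, the counts depend on the settings and on the arrays that supply the error. Of the 31 limma calls (30 higher, 1 lower), 31 remained with an offset of 1 (2 lower), with no term for the prefix (136 higher, 21 lower) and with only the 4 DV001 arrays (409 and 144). Leaving out replicate 1 or 2 gave 103 to 196 higher and 8 to 26 lower, with all 31 kept. With quantile normalization 29 remained, with no intensity trend 24 (0 lower), with an offset of 64 21, with all 18 arrays 17 (0 lower) and with no filter 4 (4 higher, 0 lower). With only the 4 DV001 arrays the error comes from the disagreement between the genotypes alone, with no replicates. The highest adjusted p of EXLA1 in limma over the settings was 0.126, with no filter.

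The 2-fold counts (29 higher, 3 lower) were 55 and 7 with an offset of 1, 13 and 0 with an offset of 64, 220 and 34 with replicates 1 and 2 as the level at 1 h, 140 and 21 at 1.5-fold, 101 and 20 in Col-0 alone and 56 and 14 in etr1-1 alone. The mean step of GID1B turned to 0.053 with no term for the prefix, where EXO, ATPMEPCRB, EXPA8, AT1G49470 and AT2G42690 passed the test. AT3G13760 passed with an offset of 1. The test of the difference between the genotypes called 0 under each setting tried. The cause of these shifts was not tested. No paired analysis was possible because of the replicate numbers: the arrays at 0 h have number 1 only and the DV001 arrays at 1 h number 3. The pairing used is that by genotype, which is a term of the fit.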

Other observations

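Transcripts encoded in the plastid genome stood apart between the genotypes as values. Of 20 such genes, 18 had steps above 0 in Col-0 and 7 in etr1-1, and the step was larger in Col-0 in 18, against 51.6% of all probe sets. The median step was 0.43 in Col-0 and -0.12 in etr1-1, beside 0.00 and -0.02 over all probe sets. The gene psbA, for a core protein of photosystem II, had 1594 at 0 h and 2812 on the paired array at 1 h in Col-0, with 1611 and 1311 on replicates 1 and 2. In etr1-1 it had 1985 and 1944, with 979 and 1389 on the others. On the DV001 arrays of Col-0 after GA4 it had 2656 at 30 min, 2447 at 1 h and 2200 at 3 h, so the other DV001 arrays of Col-0 also lay above the 0 h array. The gene rbcL, for the large Rubisco subunit, had steps of 0.49 and 0.00. No plastid gene passed the limma test of the mean step, and the plastid genes share their arrays, so the 20 are not independent. The first cDNA strand was primed with an oligo(dT) primer, per the labels' protocols, and the part of priming in these values was not tested. Of 9 nuclear photosynthesis genes, 8 also had a larger step in Col-0, against the same 51.6%.

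The other genes nearest to a difference between the genotypes were AT5G01670, with a difference (etr1-1 minus Col-0) of 1.93 ± 0.31, and AT5G57170, with 1.68 ± 0.27. Each had an adjusted p of 0.537 in limma. In AT5G57170 the paired array of etr1-1 at 1 h had 258, against 72.7 and 75.5 on replicates 1 and 2. In the other direction AT1G27990 had -2.01 ± 0.41, AT2G44730 -1.25 ± 0.30 and AT4G08960 -1.15 ± 0.29, none of them past the test.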
